A study of Mus musculus with 8 samples.

Results

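The AP-1 family described here comprised 8 genes of the 18770 listed in the table, namely Fos, Fosb, Fosl1 and Fosl2 (the Fos subfamily), Jun, Junb and Jund (the Jun subfamily) and Atf3. They were chosen on the measured difference between alpinetin (AP) and vehicle control (VC) skin together with their membership of the family, so their own AP and VC values are given as a description with no test. All 8 genes passed the filter on low values (a value of 3 or more in 4 or more libraries), as did 15964 genes in all.

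Messenger RNA was measured by RNA-seq in dorsal skin of wildtype C57BL/6 mice (C57BL/6J in the methods) aged 7 to 8 weeks, taken at D4 after depilation, a procedure that sets hair follicles into a new growth cycle. The tissue was dermis with its hair follicles, from which the interfollicular epidermis had been removed, and according to the methods only male mice were used. The VC group (n = 4) received 20 µl of 65% ethanol on the skin, and the AP group (n = 4) received alpinetin, a plant flavonoid, at 3 mg/ml in the same volume and solvent, in both cases once daily from the day after depilation. The question put to the data was how the genes of skin differ when depilated skin is given AP. The 4 libraries of a group carry the group name and a number from 1 to 4 (VC.1, AP.1 and so on), which does not tie them to the numbers of the individual mice.

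AP-1 is a transcription factor made of a pair of basic leucine zipper (bZIP) proteins. Fos proteins need a Jun partner, whereas Jun proteins also pair with each other and with ATF proteins such as Atf3. Fos, Fosb, Jun, Junb and Atf3 are known as immediate early genes, switched on within minutes of growth factor, stress or wounding signals without new protein synthesis, and AP-1 is known in epidermis as a regulator of keratinocyte proliferation and differentiation.

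The reads counted on genes ranged from 6454563 to 7264151 in the VC libraries and from 8507783 to 11190113 in the AP libraries. Mitochondrially encoded genes took 54.3%, 44.9%, 42.1% and 52.3% of the reads in VC.1 to VC.4, against 11.1%, 7.85%, 5.32% and 10.3% in AP.1 to AP.4. The share differed between the groups (2-sided exact permutation test, p = 0.0286, the smallest that 70 assignments allow), as did the number of reads (p = 0.0286, exact permutation test). Without the mitochondrial reads, 3080758 to 3762217 reads remained in a VC library and 7561598 to 10594787 in an AP library, so that 1 read was worth 1.37 to 1.88 normalized counts in VC and 0.498 to 0.725 in AP. Values are normalized counts, which are reads divided by 1 size factor per library. With the non-mitochondrial reads of each library drawn down to 3080758, the log2 fold changes (AP over VC) of Fos, Fosb and Jun were 2.57, 3.14 and 1.12, against 2.56, 3.29 and 1.19 with all reads. The part of the mitochondrial share in the results that follow was not tested.

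Of the 8 members, 5 had every AP library above every VC library, as did 10.3% of all genes tested, and 0 had every AP library below every VC library, as did 8.91% of all genes. Since the members were chosen on this contrast, nothing is read from these counts. These 5 were Fos, Fosb, Jun, Junb and Atf3, while Fosl1, Fosl2 and Jund overlapped between the groups. In bulk tissue, fewer cells of a type and less RNA per cell cannot be told apart, and this holds for each level given here.

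**Figure D1:**
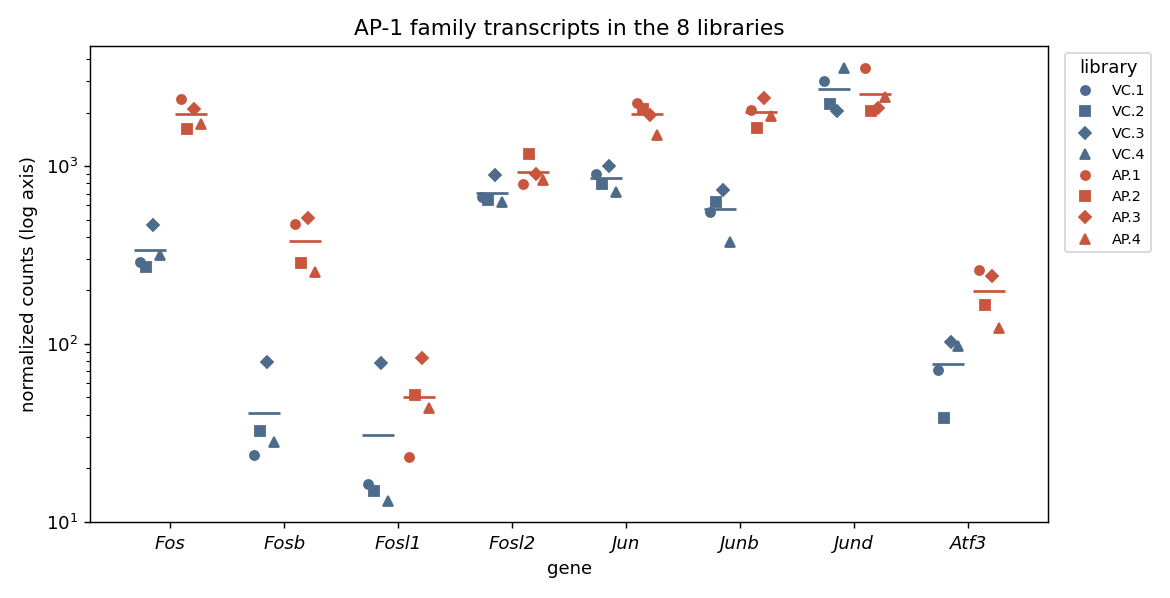
Normalized counts (log axis) of the 8 AP-1 family genes in each library, with VC libraries in blue, AP libraries in red, 1 symbol per library and a line at the mean of each group of 4. Fos lies between 269 and 468 in VC and between 1615 and 2384 in AP, whereas Jund covers much the same range in both groups.

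Fos encodes the founding member of the Fos subfamily, a partner that binds DNA only together with a Jun protein. Its gene lies at chr12:85473890-85477273 on the plus strand of mm10, with 4 exons in a longest transcript of 2108 nt. Fos stood at 287, 269, 468 and 317 normalized counts in VC.1 to VC.4, against 2384, 1615, 2090 and 1728 in AP.1 to AP.4. All AP libraries were above all VC libraries, and VC.3 was the highest of the VC libraries. The means were 335 ± 90.8 in VC and 1954 ± 351 in AP (SD, n = 4), and the log2 fold change on the log2(value + 1) scale was 2.56 ± 0.20 (SE). The lowest AP library held 3.45 times the count of the highest VC library. Between 158 and 343 reads stood behind a VC value and between 2416 and 4194 behind an AP value.

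Fosb, a close relative of Fos with the same need for a Jun partner, is on the minus strand at chr7:19302696-19310051, with 4 exons. It was the member with the largest log2 fold change, and it was scarce in VC skin. Fosb stood at 23.6, 32.5, 79.2 and 28.1 normalized counts in VC.1 to VC.4, against 471, 284, 512 and 253 in AP.1 to AP.4. The groups did not overlap, although VC.3 held 2.82 times the mean of the other VC libraries. The log2 fold change was 3.29 ± 0.38 (SE), and it was 3.66 without VC.3. The VC values rested on 13, 22, 58 and 15 reads, so that they carry a large counting error.

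Fosl1 and Fosl2 encode Fra-1 and Fra-2, Fos relatives that lack the strong activation domain of Fos. Fosl1 (chr19:5447547-5455946, plus strand) stood at 16.4, 14.8, 77.8 and 13.1 normalized counts in VC.1 to VC.4, against 23.2, 51.2, 83.2 and 43.6 in AP.1 to AP.4. The ranges overlapped through VC.3, which was above all AP libraries but AP.3, while the other VC libraries were below all AP libraries. The log2 fold change of Fosl1 was 0.99 ± 0.59 (SE), and 1.57 without VC.3. Its VC values came from only 9, 10, 57 and 7 reads. The gene overlaps Ccdc85b on the opposite strand, which held 3.22 to 49.3 times as many normalized counts. Whether reads were counted by strand is not stated, so that reads of a gene and of a partner on the other strand cannot be told apart.

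Fosl2 (chr5:32135801-32157842, plus strand) has the longest transcript of the family, at 6537 nt. It stood at 673, 641, 886 and 624 normalized counts in VC.1 to VC.4, against 791, 1169, 902 and 836 in AP.1 to AP.4. VC.3 was again the highest VC library, and it lay above AP.1 and AP.4. The means were 706 ± 122 and 925 ± 170 (SD, n = 4), and the log2 fold change was 0.39 ± 0.17 (SE). With a trend on transcript length removed from each library, this value was 0.03, while the median of all genes went to -0.09, so that its size depends on how long transcripts are treated.

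Jun, whose product pairs with itself as well as with Fos proteins, is encoded by 1 exon at chr4:95049034-95052222 on the minus strand. Jun stood at 899, 794, 1004 and 716 normalized counts in VC.1 to VC.4, against 2251, 2104, 1949 and 1501 in AP.1 to AP.4. The groups did not overlap, and the lowest AP library, AP.4, held 1.5 times the count of the highest VC library. The means were 853 ± 125 and 1951 ± 325 (SD, n = 4), with a log2 fold change of 1.19 ± 0.17 (SE). The antisense gene Junos, which overlaps Jun, stood at 29.1, 70.9, 128 and 88.1 in VC.1 to VC.4, against 359, 404, 329 and 245 in AP.1 to AP.4. Junos was thus also higher in every AP library. It held 0.0324 to 0.128 times the count of Jun in the VC libraries and 0.160 to 0.192 times in the AP libraries.

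Junb encodes a Jun protein known to counter Jun at some promoters and to restrain inflammation in epidermis. It lies at chr8:84974484-84978718 on the minus strand, with 1 exon in its longest transcript. Junb stood at 553, 627, 737 and 375 normalized counts in VC.1 to VC.4, against 2057, 1629, 2409 and 1908 in AP.1 to AP.4. No AP library came near the VC range, the lowest of them being 2.21 times the highest VC library. The means were 573 ± 152 and 2000 ± 325 (SD, n = 4), with a log2 fold change of 1.83 ± 0.21 (SE). The overlapping gene Prdx2 on the opposite strand moved the other way, from 1789 to 2658 in VC to 1417 to 1772 in AP.

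Jund, the member known for steady expression in resting cells, has 1 exon at chr8:70698949-70700616 on the plus strand. Jund stood at 3000, 2243, 2036 and 3570 normalized counts in VC.1 to VC.4, against 3579, 2041, 2133 and 2432 in AP.1 to AP.4. The ranges of the groups nearly coincided, and here VC.3 was the lowest VC library. The log2 fold change was -0.09 ± 0.23 (SE), an error wide enough to hold modest changes in both directions. Its sign is not fixed, since the value was 0.05 without VC.4. Scaling by total reads raised the median of all genes to 0.90 and Jund to 0.78, which is -0.12 relative to that median. The antisense gene Gm11175 followed Jund closely, at 0.700 to 0.791 times its count in VC libraries and 0.827 to 0.905 times in AP libraries. The ratio was thus higher in every AP library. Unstranded counting could place the same molecules in either gene.

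Atf3 encodes an ATF protein induced by stress, which pairs with Jun proteins and is known as a repressor as well as an activator. The gene spans chr1:191170296-191218039 on the minus strand. Atf3 stood at 70.9, 38.4, 102 and 97.5 normalized counts in VC.1 to VC.4, against 260, 166, 240 and 123 in AP.1 to AP.4. The groups did not overlap but came close, the lowest AP library being 1.20 times the highest VC library. The means were 77.3 ± 29.4 and 197 ± 64.1 (SD, n = 4), with a log2 fold change of 1.37 ± 0.35 (SE).

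To compare the members with each other, each value was divided by the length of the longest transcript in kb. On this scale Jund had the highest level in VC, at 1626 ± 423 per kb (SD, n = 4), and the VC order then ran Junb at 317, Jun at 267, Fos at 159, Fosl2 at 108, Atf3 at 39.0, Fosl1 at 16.4 and Fosb at 10.8. Jund was above Junb in 4 of 4 VC libraries with no overlap of the ranges, as was Jun above Fos and Fosl2 above Atf3. Junb and Jun did not differ beyond their spread, nor did Fosl1 and Fosb.

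In AP the order per kb was Jund at 1526, Junb at 1106, Fos at 927, Jun at 612, Fosl2 at 141, Fosb at 100.5, Atf3 at 99.4 and Fosl1 at 27.0. Fos stood above Jun in 4 of 4 AP libraries, whereas in VC it stood below Jun in all of them. This order in AP depends on the division by length. In normalized counts Fos was below Jun in AP.2 (1615 against 2104), and the AP means were 1954 and 1951. Per kb, the ranges of Jund and Junb overlapped in AP, with Jund higher in 3 of 4 libraries. Fosb and Atf3 did not differ beyond their spread in AP. By group mean, Fosb, last of the 8 in VC, was sixth in AP, and Fosl1 was last. In VC, however, Fosl1 was above Fosb in only 2 of 4 libraries. The VC mean of Fosl1 rested on VC.3, at 41.8 per kb against 7.04 to 8.78 in the other VC libraries.

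Ratios between members within a library do not depend on how libraries are scaled to each other. The ratio of Fos to Jun per kb came to 0.484, 0.513, 0.706 and 0.669 in VC.1 to VC.4, against 1.60, 1.16, 1.62 and 1.74 in AP.1 to AP.4. It was higher in every AP library, with VC.3 and VC.4 above the other VC libraries. The ratio of Fos to Fosl2 per kb went from 1.46 ± 0.17 in VC to 6.81 ± 2.09 in AP (SD, n = 4), and that of Junb to Jund from 0.215 ± 0.103 to 0.758 ± 0.211. The ratio of Atf3 to Jun overlapped between the groups, at 0.147 ± 0.060 in VC and 0.161 ± 0.037 in AP.

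The summed per-kb level of the 8 members came to 2676, 2202, 2415 and 2882 in VC.1 to VC.4, against 5508, 3915, 4652 and 4083 in AP.1 to AP.4. Every AP library exceeded every VC library. Jund made up 67.2%, 61.1%, 50.5% and 74.3% of this sum in VC.1 to VC.4, against 38.9%, 31.3%, 27.5% and 35.7% in AP.1 to AP.4, a lower share in all AP libraries although its own count overlapped. The share of the Fos subfamily came to 9.50%, 11%, 17.4% and 9.03% in VC.1 to VC.4, against 25.2%, 26.8%, 28.1% and 25.4% in AP.1 to AP.4. Fos itself supplied most of that share in AP, at 20.4 ± 0.74% of the sum against 6.33 ± 1.94% in VC (SD, n = 4).

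**Figure D2:**
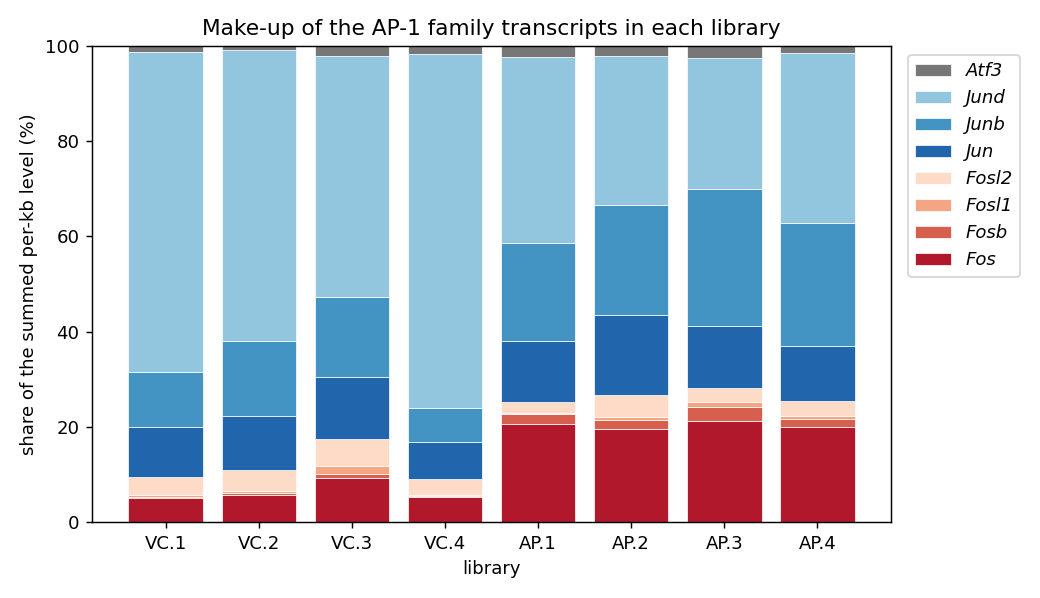
Share (%) of the summed per-kb level of the 8 AP-1 family genes held by each gene, with 1 stacked bar per library, Fos subfamily in reds, Jun subfamily in blues and Atf3 in grey. Jund holds 50.5% or more of the sum in each VC library and at most 38.9% in an AP library, and VC.3 is the VC library with the smallest Jund share.

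When each gene was given equal weight on the log2(value + 1) scale, the mean of the Fos subfamily minus the mean of the Jun subfamily came to -3.58, -3.41, -2.34 and -3.38 in VC.1 to VC.4, against -2.73, -2.22, -2.01 and -2.42 in AP.1 to AP.4. VC.3 was inside the AP range, and the other VC libraries were below it. The difference between the groups was 0.83, and 1.11 without VC.3. Both subfamilies had higher means in AP, from 6.90 ± 0.62 to 8.70 ± 0.25 for the Fos genes and from 10.07 ± 0.11 to 11.05 ± 0.20 for the Jun genes (SD, n = 4).

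VC.3 was the highest VC library for 7 of the 8 members and the lowest for Jund. Among all genes tested, 24.5% had their highest VC value in that library. The list of other immediate early genes, described further on, had 18 of its 30 tested genes highest in VC.3 among the VC libraries. Of the 12 heat shock genes tested, also described further on, 8 were highest there among the VC libraries. VC.3 also had the smallest mitochondrial share of the VC group and the most genes with a read, 17417. What sets it apart was not tested.

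In the AP group, AP.1 was highest for 4 members (Fos, Jun, Jund and Atf3), AP.3 for Fosb, Fosl1 and Junb, and AP.2 for Fosl2. AP.4 had the lowest Fosb, Jun and Atf3 of the group, and AP.1 the lowest Fosl1 and Fosl2. The members thus did not share 1 order over the AP libraries. Within AP, the highest value was 1.48 times the lowest for Fos, 1.5 times for Jun and 1.48 times for Junb, a narrower range than the 3.59 times of Fosl1.

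RefSeq promoters (GRCm38.p6) were found for 7 of the 8 members, and Fosl1 had none. The 250 bases before the start were searched on both strands for TGACG, the core shared by sites for cAMP-responsive and ATF factors, for TGANTCA, the AP-1 site, for TGANNTCA, its form with 1 more base, for TATAAA and for the CArG box bound by serum response factor. A TGANNTCA match can contain TGACG. The promoters of the 5 members whose groups did not overlap are shown 5′ to 3′ on the gene strand, because these genes were high in the same libraries. Capitals mark the matches.

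Fos, chr12:85473640-85473889, plus strand: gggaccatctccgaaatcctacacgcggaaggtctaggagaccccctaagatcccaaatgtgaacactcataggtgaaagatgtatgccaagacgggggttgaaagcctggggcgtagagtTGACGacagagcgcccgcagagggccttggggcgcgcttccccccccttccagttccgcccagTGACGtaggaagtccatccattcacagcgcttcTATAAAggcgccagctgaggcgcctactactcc
Fosb, chr7:19310046-19310295, minus strand: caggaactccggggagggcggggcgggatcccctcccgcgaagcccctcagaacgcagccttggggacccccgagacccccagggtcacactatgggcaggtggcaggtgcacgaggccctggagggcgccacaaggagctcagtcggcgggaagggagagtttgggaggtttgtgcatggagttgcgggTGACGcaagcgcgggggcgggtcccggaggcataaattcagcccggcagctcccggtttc
Jun, chr4:95052223-95052472, minus strand: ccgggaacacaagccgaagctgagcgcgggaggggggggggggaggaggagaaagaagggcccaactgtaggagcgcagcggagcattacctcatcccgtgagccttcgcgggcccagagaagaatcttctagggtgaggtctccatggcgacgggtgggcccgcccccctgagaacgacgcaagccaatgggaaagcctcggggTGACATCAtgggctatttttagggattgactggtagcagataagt
Junb, chr8:84978749-84978998, minus strand: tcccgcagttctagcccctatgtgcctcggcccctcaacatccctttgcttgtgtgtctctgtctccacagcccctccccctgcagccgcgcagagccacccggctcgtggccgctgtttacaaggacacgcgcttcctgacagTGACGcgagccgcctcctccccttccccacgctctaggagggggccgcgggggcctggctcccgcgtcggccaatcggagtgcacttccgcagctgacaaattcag
Atf3, chr1:191183334-191183583, minus strand: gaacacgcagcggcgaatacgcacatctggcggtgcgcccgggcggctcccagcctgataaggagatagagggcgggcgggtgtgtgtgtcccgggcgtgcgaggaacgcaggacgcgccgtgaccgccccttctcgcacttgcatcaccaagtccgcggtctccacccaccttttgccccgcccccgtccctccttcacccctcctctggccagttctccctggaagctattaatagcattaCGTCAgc

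TGACG was present in 4 of these promoters (Fos, Fosb, Junb and Atf3), and in 17.8% of all 32851 promoters of the same length. In Fos it occurred from 129 and from 66 bases before the start, in Fosb from 60, in Junb from 106 and, on the opposite strand, in Atf3 from 7 bases before the start. Jun had TGACATCA from 45 bases before its start, a match to TGANNTCA, which 11.9% of all promoters held and which was also found for Jund. TATAAA was found for Fos among the members, and in 12.4% of all promoters. Neither TGANTCA (6.75% of all promoters) nor the CArG box (1.47%) occurred in the window of any of the 7 members. The windows of Fos and Jun end at the start of the GENCODE gene, that of Atf3 belongs to a start inside the annotated gene, and 6 bases of the Fosb window and 7 of the Atf3 window lie in annotated exons of those genes. The RefSeq start of Junb is 30 bases and that of Jund 1210 bases upstream of the GENCODE gene start, and the whole Fosl2 window (250 bases) lies inside Fosl2 exons, so that the Jund and Fosl2 windows do not show the bases before the GENCODE start. A match describes these letters and is no evidence of binding.

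The genes around the family were taken from 6 lists, tested with limma, with p-values adjusted (Benjamini-Hochberg) across the 15964 genes. Over all genes, 1011 (6.33%) were called higher in AP and 639 (4.0%) lower at an adjusted p under 0.05, and the median log2 fold change was 0.06. The share of all genes at an unadjusted p under 0.05 is not given here. Counts of listed genes and of markers at that threshold therefore have no background to be read against. The lists, like the members, were chosen with earlier results of these data known, so that their counts beside these shares are a description. Of the 120 listed genes tested, 25 were called higher and 3 lower. Without VC.1, AP.2, AP.3 or AP.4, 16, 13, 9 and 13 were called higher, in fits with fewer samples, where the calls over all genes were fewer as well (584, 385, 211 and 257 higher).

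**Figure D3:**
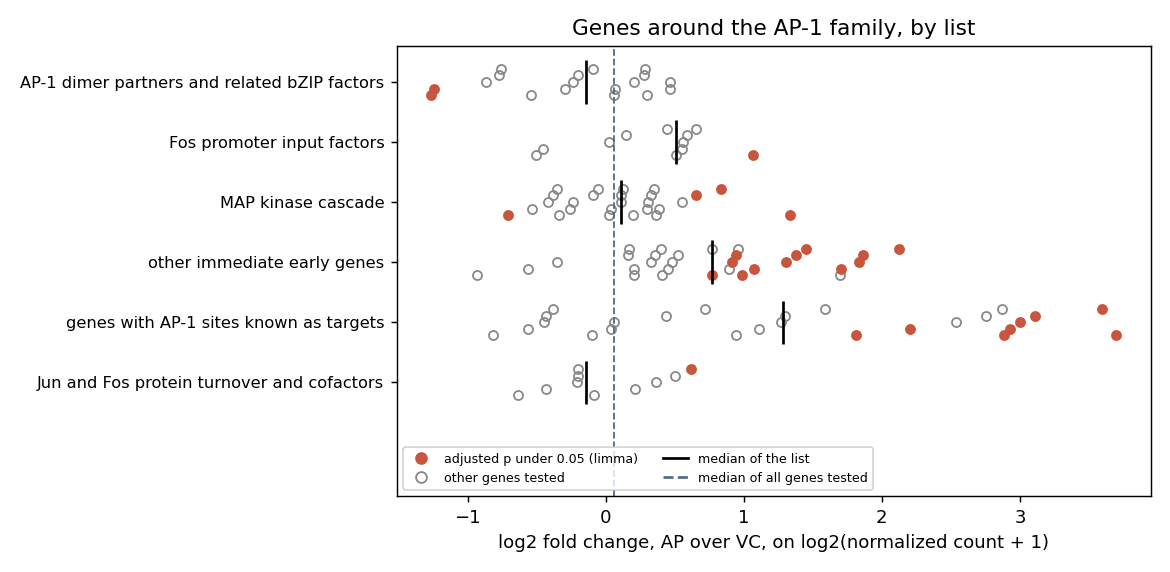
Log2 fold change of AP over VC for each tested gene of 6 lists, with genes at an adjusted p under 0.05 (limma) filled, a black line at the median of each list and a dashed line at the median of all genes tested, 0.06. The lists of other immediate early genes and of AP-1 target genes have medians of 0.77 and 1.28, and those of bZIP partners and of turnover factors have medians of -0.14.

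Other bZIP proteins that can pair with AP-1 members or compete with them numbered 18, of which 0 were called higher and 2 lower, with a median log2 fold change of -0.14 (limma). At an unadjusted p under 0.05, 1 gene of this list was higher and 5 were lower. edgeR, DESeq2 and limma-voom each called 0 higher, and they called 2, 3 and 2 lower. The genes called lower were Atf5 and Ddit3, both known from the response to amino acid and protein-folding stress.

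Atf5 fell from 3322 ± 1091 to 1370 ± 293 normalized counts (SD, n = 4; log2 fold change -1.24 ± 0.25, limma adjusted p = 0.0167), and the call was lost without AP.3 (adjusted p = 0.0576). Ddit3 fell from 271 ± 62.8 to 114 ± 37.2 (log2 fold change -1.26 ± 0.27, limma adjusted p = 0.0191), with the call lost without AP.3 (0.0629) or AP.4 (0.0528). Scaling by total reads, which moved the median of all genes to 0.90, left neither called (adjusted p = 0.135 and 0.259), but relative to that median Atf5 was at -1.27 and Ddit3 at -1.30, against -1.30 and -1.32 with the deposited scaling. Jdp2, a repressor that pairs with Jun, had all AP libraries below all VC libraries, at 239 ± 71.6 against 439 ± 159, but did not pass the test (adjusted p = 0.0644, limma). Without AP.1 it passed (0.0438), as it did with DESeq2 (0.034), and its adjusted p reached 0.174 without AP.3, and 0.997 with total reads, where it was -0.90 relative to the median of all genes (-0.93 with the deposited scaling). Atf2, Atf4, Batf3 and Maff did not pass, with log2 fold changes of 0.06 ± 0.23, -0.54 ± 0.20, -0.77 ± 0.53 and 0.21 ± 0.28 (SE).

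Factors known to act on the Fos promoter, serum response factor with its partners and the CREB proteins with their coactivators, numbered 11 tested genes with a median of 0.51. Of these, 1 was called higher and 0 lower (limma), and 4 had every AP library above every VC library. There were 4 higher and 1 lower at an unadjusted p under 0.05. edgeR, DESeq2 and limma-voom called 1, 3 and 1 higher and each called 0 lower. Ep300, a histone acetyltransferase and coactivator, rose from 233 ± 56.0 to 489 ± 119 normalized counts (SD, n = 4; log2 fold change 1.07 ± 0.23, limma adjusted p = 0.0198). Its call was lost without AP.2 (adjusted p = 0.0584), AP.3 (0.0688) or AP.4 (0.0508), and with the trend on transcript length removed (0.0961), where the log2 fold change was 0.61. Srf had every AP library above every VC library, at 404 ± 57.5 against 273 ± 66.5, but did not pass (adjusted p = 0.0894, limma). Elk1, Elk3 and Creb1 did not pass either, with log2 fold changes of 0.02 ± 0.23, 0.51 ± 0.28 and 0.14 ± 0.16 (SE).

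The MAP kinase cascade, the phosphorylation chain that activates Jun and the Fos promoter factors, had 26 tested genes, of which 3 were called higher and 1 lower, with a median of 0.11. Map3k1, an upstream kinase of the Jun kinase branch, went from 137 ± 62.9 to 323 ± 67.4 normalized counts (SD, n = 4; limma adjusted p = 0.0265). Rps6ka3, which encodes the kinase Rsk2, went from 286 ± 45.2 to 511 ± 76.8 (limma adjusted p = 0.0175). Map2k7, which encodes an activator of the Jun kinases, fell from 336 ± 51.0 to 204 ± 19.7 (limma adjusted p = 0.0289).

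The calls of Map3k1, Rps6ka3 and Map2k7 were all lost without AP.2, AP.3 or AP.4, with adjusted p of 0.0528 to 0.0877. Without these libraries in turn, the log2 fold changes were 1.23 to 1.39 for Map3k1 (1.33 in the whole set), 0.74 to 0.85 for Rps6ka3 (0.84) and -0.74 to -0.64 for Map2k7 (-0.71). The calls of Map3k1 and Map2k7 were lost without VC.1 as well (0.0571 and 0.0578), that of Map3k1 without VC.4 (0.0541) and that of Map2k7 without VC.3 (0.0534). With the trend on transcript length removed, Map3k1 and Rps6ka3 were not called (adjusted p = 0.0577 and 0.0893), and their log2 fold changes were 0.96 and 0.45. With total reads the log2 fold changes of Map2k7 and Mapk3 turned to 0.16 and 0.63, which is -0.74 and -0.27 relative to the median of all genes. Mapk3, Mapk8 and Mapk14 did not pass, with log2 fold changes of -0.24 ± 0.13, 0.11 ± 0.21 and 0.33 ± 0.21 (SE).

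Other immediate early genes, which are induced by the same signals as Fos and Jun, had 30 tested genes, of which 12 were called higher and 0 lower, with a median of 0.77 (limma). At an unadjusted p under 0.05, 18 were higher and 1 was lower. edgeR called 12 higher and 0 lower, DESeq2 13 and 1, and limma-voom 11 and 0. With a library left out, 7 (without AP.3) to 14 (without VC.3) were called higher. The summed level of the list came to 9128, 8964, 12400 and 10665 normalized counts in VC.1 to VC.4, against 19176, 19011, 18392 and 15926 in AP.1 to AP.4. All AP libraries were above all VC libraries, and Klf4 was the most abundant gene of the list.

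Dusp1, a phosphatase that switches MAP kinases off, stood at 200.1, 245, 511 and 353 normalized counts in VC.1 to VC.4, against 1841, 1530, 1095 and 1046 in AP.1 to AP.4. The groups did not overlap, and VC.3 was again the highest VC library. The log2 fold change was 2.12 ± 0.29 (limma adjusted p = 0.00435). Egr1, a zinc finger factor induced through serum response factor, went from 385 ± 112 to 1383 ± 328 (SD, n = 4; log2 fold change 1.86 ± 0.23, limma adjusted p = 0.00297). Zfp36, whose product speeds the decay of AU-rich messages such as those of Fos, went from 298 ± 71.0 to 967 ± 211 (limma adjusted p = 0.0036).

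Ier2, a small nuclear factor, went from 442 ± 29.5 to 865 ± 181 normalized counts (SD, n = 4; limma adjusted p = 0.0113). Socs3, an inhibitor of cytokine signalling, went from 149 ± 102 to 477 ± 134 (limma adjusted p = 0.0152), with 0.0507 when AP.3 was left out. Ccn1, a matrix protein gene, went from 196 ± 70.5 to 551 ± 270 (limma adjusted p = 0.0344), and its call was lost without any of VC.1, VC.2, VC.4, AP.1, AP.2 or AP.3 (adjusted p of 0.0527 to 0.0947). Myc did not pass, at 389 ± 87.2 against 216 ± 102 (adjusted p = 0.073, limma), but did without VC.3 (0.0354).

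Genes known as AP-1 targets had 26 tested, of which 8 were called higher and 0 lower, with a median of 1.28 (limma). At an unadjusted p under 0.05, 14 were higher and 1 was lower. edgeR called 7 higher and 0 lower, DESeq2 12 and 1, and limma-voom 4 and 0. Without AP.3 or AP.4, 2 were called higher, and without AP.2 or VC.4, 5 were. Among those with a mean of at least 50 normalized counts, the 5 called genes with the largest changes were Sprr1b, Lor, Ivl and Tgm1, which encode parts or the crosslinking enzyme of the cornified envelope of keratinocytes, and S100a9, which encodes a calcium-binding protein of neutrophils and stressed epidermis. Lor, Ivl and Tgm1 also belong to the list of suprabasal keratinocyte markers.

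Ivl stood at 78.2, 93.1, 61.4 and 43.1 normalized counts in VC.1 to VC.4, against 278, 192, 1014 and 1122 in AP.1 to AP.4. The groups did not overlap, and AP.3 and AP.4 were far above AP.1 and AP.2, an order that Fos, Jun and Atf3 did not have. The log2 fold change of Ivl was 2.89 ± 0.52 (limma adjusted p = 0.0113). Sprr1b had 42.1 in AP.1 and 259 to 516 in the other AP libraries, against 9.10 to 39.6 in VC (limma adjusted p = 0.0165), and its call was lost without AP.3 (0.0564) or AP.4 (0.052) and with limma-voom (0.146). Tgm1 went from 47.3 ± 28.2 to 208 ± 108 (SD, n = 4; limma adjusted p = 0.0253), with the call lost without AP.3 (0.0859) or AP.4 (0.0772) and with limma-voom (0.0573).

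Lor overlapped between the groups, with 416 in AP.2 against 266 to 692 in VC, and was called (limma adjusted p = 0.0386) in the whole set and without AP.2, but not without any 1 of the other 7 libraries (0.0534 to 0.111). S100a9 overlapped too (limma adjusted p = 0.0365), and its call was lost without VC.1, VC.3, VC.4, AP.2, AP.3 or AP.4 (0.0658 to 0.106) and with limma-voom (0.205). Mmp9, Plaur, Hbegf and Ccnd1 did not pass, with log2 fold changes of 1.27 ± 0.43, 1.11 ± 0.55, 2.54 ± 1.06 and -0.43 ± 0.14 (SE). DESeq2 called Mmp9 higher (adjusted p = 0.0365) and Ccnd1 lower (0.0302), and over the alternatives their adjusted p ranged from 0.00191 to 0.217 and from 0.0302 to 0.2001. The lowest of these for Mmp9 came from scaling by total reads, which moved the median of all genes to 0.90. With total reads the log2 fold change of Ccnd1 turned to 0.44, which is -0.46 relative to that median. There Ccnd1 was called higher (limma adjusted p = 0.0377), whereas with upper-quartile factors it was called lower (0.0494).

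Genes for the turnover and cofactors of Jun and Fos proteins had 10 tested, with 1 called higher, 0 lower and a median of -0.14 (limma). At an unadjusted p under 0.05, 2 were lower, and edgeR, DESeq2 and limma-voom called 0, 1 and 0 lower. Gsk3b, a kinase that marks Jun for degradation, overlapped between the groups at 339 ± 47.4 and 522 ± 76.6 (SD, n = 4; limma adjusted p = 0.0414), and it kept its call only without VC.3 or AP.1 when libraries were left out in turn. Without any of the others its adjusted p was 0.0691 to 0.133, and the call was also lost with limma-voom (0.0538) and with scaling by non-mitochondrial reads (0.0505). With the trend on transcript length removed its log2 fold change went from 0.62 to 0.20 (adjusted p = 0.446). Cops5, which encodes a coactivator of Jun, had a log2 fold change of -0.21 ± 0.17 (SE) and did not pass. With total reads it was 0.66, which is -0.24 relative to the median of all genes (-0.27 with the deposited scaling).

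By root-mean-square difference of mean-centred log2 values over the 8 libraries, the genes most like Fos among 10808 candidates were Tnfaip3 (0.327), Dusp1 (0.370), Ano1 (0.395), Egr1 (0.426) and Mall (0.436). Junb was at rank 6, Fosb at 11, Atf3 at 64 and Jun at 95. The genes most like Jun were Timp3 (0.154), Flrt2 (0.185), Ubr3 (0.195), Cobll1 (0.208) and Atp11a (0.211), and Junb, the nearest member, was at rank 626. The genes most like Fosl2 were Sbk1 (0.082), Fmr1 (0.089), Cdk17 (0.103), Hipk1 (0.106) and Nfatc3 (0.106). Such likeness is set in large part by the difference between AP and VC that the genes share.

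Cell type markers differed between the groups as well, among them those of the epidermis, whose interfollicular part had been removed from the tissue. Of 18 suprabasal keratinocyte markers, 15 were called higher in AP, with a median log2 fold change of 2.90 and Krt10 as the most abundant gene, and 11 to 18 were with a library left out. edgeR, DESeq2 and limma-voom called 16, 17 and 12 of them higher. The sum of this list came to 6887, 14192, 9915 and 6437 normalized counts in VC.1 to VC.4, against 47327, 44341, 131244 and 182120 in AP.1 to AP.4. Of the AP libraries, AP.4, with the highest sum, had the lowest Fosb, Jun and Atf3, AP.3, with the next highest, had the highest Fosb, Fosl1 and Junb, and AP.1, with a sum close to that of AP.2, had the highest Fos, Jun, Jund and Atf3. Of 11 basal keratinocyte markers, 6 were called higher (2 without VC.1, VC.4, AP.3 or AP.4, and 3 without AP.2; 5, 6 and 5 by edgeR, DESeq2 and limma-voom), and their sum, led by Krt14, was 23438 to 81481 in VC and 54382 to 146232 in AP. No marker of either list was at 0 in all libraries. The part of keratinocyte content in the levels of the AP-1 genes was not tested.

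Of 8 endothelial markers, 2 were called higher (Pecam1, the most abundant, and Cdh5), with a median log2 fold change of 1.41 and sums of 1280 to 2173 in VC and 2477 to 6266 in AP. There were 6 higher at an unadjusted p under 0.05, edgeR, DESeq2 and limma-voom called 2, 5 and 2 higher, and 1 to 5 were called higher with a library left out, the 5 without VC.4. Of 6 smooth muscle markers, 2 were called higher (Acta2 and Myh11), with sums of 4231 to 6541 in VC and 3011 to 8669 in AP, led by Des, and a median of 0.91. By log2 fold change 5 were above 0 and 1, Des, was below (-1.33 ± 0.50, SE). Des stood at 2898, 5217, 2738 and 3206 in VC.1 to VC.4, against 4765, 1058, 596 and 1105 in AP.1 to AP.4. The VC sums thus rest largely on Des. Of the 6 markers, 4 were higher and 1 lower at an unadjusted p under 0.05, and edgeR, DESeq2 and limma-voom called 2, 3 and 2 higher. With a library left out, 1 to 3 were called higher. The part of these cells in the levels of the AP-1 genes was not tested.

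Skeletal muscle markers, led by Acta1, were lower in AP by mean log2 value for 11 of 11 genes, with a median log2 fold change of -1.74. By mean normalized count, Myh1 (3426 in VC, 3871 in AP) and Myh4 (2504 in VC, 2813 in AP) were higher in AP. Of the 11 genes, 1 was called lower (Tnnc2, limma), 9 were lower at an unadjusted p under 0.05, and edgeR, DESeq2 and limma-voom called 0, 0 and 1. Their sum was 38243 to 76795 in VC, 74599 in AP.1 and 5699 to 12383 in the other AP libraries. Without AP.1, 11 of 11 were called lower, and without any 1 of the other libraries 0 were. The muscle sum of AP.1 was close to that of VC.2. Among the AP libraries, AP.1 had the highest Fos, Jun, Jund and Atf3 and the lowest Fosl1 and Fosl2.

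Leukocyte markers, led by Lyz2, were lower in AP for 10 of 13 genes, with a median of -0.38 and sums of 6894 to 19150 in VC and 5157 to 8966 in AP. Of these, 5 were lower and 3 higher at an unadjusted p under 0.05, DESeq2 called 3 lower and 1 higher, and limma called 0 lower and 1 higher (Cd207). edgeR and limma-voom called 0 lower. Without AP.3 or AP.4, 0 were called, whereas 1 was called lower without AP.1, VC.2 or VC.3, and 2 were called higher without VC.3. Neutrophil markers, led by S100a8, had 1 of 4 called higher (S100a9; 1, 2 and 0 by edgeR, DESeq2 and limma-voom), with a median of 1.56 and sums of 71.0 to 131 in VC and 70.4 to 599 in AP. By log2 fold change 3 of the 4 were above 0. Csf3r was below, at 47.5 ± 31.0 in VC and 25.4 ± 9.67 in AP (SD, n = 4; log2 fold change -0.77 ± 0.46), and was not called. The neutrophil markers Ly6g and Mpo were not among the genes listed. The part of skeletal muscle, leukocytes and neutrophils in the levels of the AP-1 genes was not tested.

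Among 15 markers of hair follicle epithelium, 10 of dermal fibroblasts and 8 of adipocytes, limma called 0 in either direction. With a library left out, follicle markers had 2 called higher without AP.1, 1 higher without VC.2 and 1 lower without VC.4, and fibroblast markers had 1 lower without AP.1 and 1 higher without VC.4. At an unadjusted p under 0.05, 3, 2 and 2 were higher and 0, 1 and 0 lower. edgeR called 1 follicle marker higher and DESeq2 2, and DESeq2 called 1 fibroblast marker lower. Fibroblast markers, led by Col1a1, summed to 82250 to 224340 in VC and 98853 to 255919 in AP, follicle markers, led by Krt17, to 12251 to 22549 and 21846 to 39112, and adipocyte markers, led by Fabp4, to 9799 to 26564 and 9494 to 25360. Defining genes of dermis and hair follicle were thus present in both groups. So were those of suprabasal keratinocytes, although the interfollicular epidermis is described as removed, and their sums were higher in every AP library than in any VC library.

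Heat shock genes, which tissue dissociation and handling stress are known to induce along with Fos and Jun, had 0 of 12 called higher and 1 lower (Hspe1), with a median of -0.15 (limma), and 0 were called lower without VC.1, VC.2, AP.2 or AP.3 (adjusted p of Hspe1 up to 0.110). At an unadjusted p under 0.05, 1 was higher, and edgeR, DESeq2 and limma-voom called 0 higher. Their sum, led by Hsp90ab1, came to 43612, 53773, 63174 and 51758 in VC.1 to VC.4, against 42636, 63941, 33947 and 52385 in AP.1 to AP.4. The ranges overlapped, with VC.3 the highest VC library. Of the 12 mitochondrially encoded genes tested, 10 were called lower (6 without AP.2 or AP.3) and 0 higher, with a median of -3.38 (limma), and 11 were lower and 0 higher at an unadjusted p under 0.05. edgeR, DESeq2 and limma-voom likewise called 0 of them higher. Their part in the levels of the AP-1 genes was not tested.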

How the data were processed

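RNA-seq libraries of 4 VC and 4 AP samples, titled as separate mice, were used. According to the methods, reads were cleaned (by steps not given), STAR placed them on mm10, and featureCounts gave the gene counts, whereas the submitters' processing notes name HTSeq. Versions and the annotation are not given in the sources used here. The signal values that the authors deposited are normalized counts, in which the reads of each library were scaled by 1 size factor from DESeq2. The table also holds the authors' DESeq2 comparison (mean, fold change, error, statistic and p-values), which was not used. All 150160 values (100%) were whole multiples of 1 step per library within 0.1 read, so that reads could be recovered.

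Genes with a value of 3 or more in 4 or more libraries were tested on log2(value + 1) with limma 3.58.1 (R 4.3.3), whose moderated variances followed a trend on mean level. The number added affects low genes, as with Fosl1, whose log2 fold change was 1.01, 0.99 and 0.86 with 0.5, 1 and 5 added. For Fosl1, edgeR and DESeq2 on recovered reads gave smaller values, 0.69 and 0.71. Called means a Benjamini-Hochberg adjusted p under 0.05 over 15964 genes. The p-values measure the spread between these samples. Mitochondrial share and reads were compared by 2-sided exact permutation. The steps were tested on simulated data. Alternatives were edgeR 4.0.16 (1003 genes called higher, 712 lower), DESeq2 1.42.0 and limma-voom on recovered reads, other scalings, pseudocounts and filters, reads drawn down to 3080758, a length correction (loess, span 0.3), the thresholds of the methods and fits that omit 1 library.

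The members and the lists were chosen with earlier results of these data known. Named genes were the members, up to 5 called genes in each direction of a list with a mean of at least 50, a set of 22 pathway genes whatever their result, and the 5 genes most like Fos, Jun and Fosl2. Of the list names, Mkl1, Mkl2, Cyr61, Ctgf and Rfwd2 are older symbols of genes also listed under their present ones. Coordinates and transcript lengths are from GENCODE M21, which holds 18766 of the 18770 identifiers, and promoters from RefSeq (GRCm38.p6). The values of 1 named gene are not reported here.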

Additional observations from a re-analysis of the deposited data

Results flagged for a closer look

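A sample was set apart where its gap to the nearest sample of its group was too large a part of the group's range by Dixon's 95% criterion for 4 samples. Of 156 groups of 4 values, 15 met this, and chance alone would give about 1 in 20. Many of these quantities share genes, so that they are not separate cases.

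Most of them concerned VC.3. It held 79.2 normalized counts of Fosb against 32.5 in the next VC library, 77.8 of Fosl1 against 16.4, 302 of Socs3 against 104 and 410 of Gsk3b against 325. Fos stood there at 91.4 CPM of the non-mitochondrial reads against 54.9 in VC.4. Fos made up 9.20% and Fosl1 1.73% of the summed per-kb level of the family in VC.3, while the Jun subfamily made up 80.5%, the lowest of the VC group. The per-kb ratio of Fosl1 to Fos was 0.188 there against 0.0644 in VC.1. The mean log2 level of the Fos subfamily was 7.82 in VC.3, and its difference from the Jun subfamily was -2.34.

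The remaining values lay in other libraries. VC.4 held 675 normalized counts of Jdp2 against 382 in VC.1, and 289 of Elk3 against 152 in VC.3. VC.1 held 1544 of Ccnd1 against 1315 in VC.2, and AP.1 held 408 of Gsk3b against 551 in AP.2.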

How the results depend on the processing

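No paired analysis was possible because the sample titles of the groups share no replicate number and the numbers of the columns could not be tied to the titles. Of 168 refitted member values over 21 alternatives, 160 moved by less than 1 SD between replicates. Scaling by total reads, which moved the median over all genes from 0.06 to 0.90, gave 3.43 for Fos, 4.14 for Fosb, 1.26 for Fosl2, 2.06 for Jun, 2.70 for Junb, 0.78 for Jund and 2.23 for Atf3. Relative to that median these were 2.53, 3.24, 0.36, 1.16, 1.80, -0.12 and 1.33, close to the 2.50, 3.23, 0.33, 1.13, 1.77, -0.15 and 1.32 of the deposited scaling. With the length trend removed Fosl2 was 0.032. The difference between the subfamilies stayed between 0.69 and 1.11 with libraries left out in turn.

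Genes called higher and lower in AP (1011 and 639) became 8670 and 65 with total reads, 1667 and 1394 with DESeq2, and 471 higher with the length trend removed (666 lower). The share of calls that were higher was 61.3% at first, 99.3% with total reads, 49.7% with limma-voom (715 and 723) and 41.4% with the length trend removed. Leaving out libraries in turn, with fewer samples in each fit, gave 211 to 1061 higher and 96 to 812 lower, with 584 and 255 without VC.1, 385 and 155 without AP.2, 211 and 96 without AP.3, and 257 and 147 without AP.4. Of the 120 pathway genes, 93 were called higher and 0 lower with total reads. The lower count, 3 at first, was 6 with upper-quartile factors, 7 with DESeq2, 5 with the length trend removed and 6 by the thresholds of the methods; with libraries left out it was 0 to 5, and the higher count 9 to 25.

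Scaling by total reads, where the median of all genes was itself 0.90, also turned the log2 fold changes of Map2k7 (0.16), Mapk3 (0.63), Ccnd1 (0.44) and Cops5 (0.66). These values were below 0 with the deposited scaling, where the median was 0.06. For the other changes the cause was not tested. Of 777 refitted values of 37 named pathway genes, 689 kept direction and side of the threshold, 66 lost and 18 gained the call, 12 of the gains with total reads, which moved all genes alike. Low VC reads limit Fosb, Fosl1 and Atf3 most.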
